A study of Mus musculus with 9 samples.

Results

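The 10 genes followed here, in RNA of the mouse iris, take apart glycine, the side chain of choline and the methyl donors derived from them: Gldc, Amt, Gcsh, Dld, Shmt1, Chdh, Bhmt, Dmgdh, Sardh and Gnmt. They were picked by gene symbol and make up 10 of the 18349 genes listed for each library. The list was drawn up with results of these libraries in view, in which Dmgdh stood among the deepest falls after injury. The differences between injured and Sham irises are therefore given as a description, with no p-value for any of the 10.

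The 9 libraries of iris RNA came from 3 groups with 3 libraries each, and every library pooled 3 irises of 1 genotype. The Sham VEGFR3 fl/fl group carried floxed VEGFR3, the receptor that lymphatic endothelium uses to sense VEGF-C, and received PBS on the cornea at 6 weeks of age. The injured VEGFR3 fl/fl group carried the same alleles and received corneal alkali injury, for which filter paper soaked in sodium hydroxide (1 M, 0.5 μL) stayed on the eye for 60 seconds. The injured VEGFR3 iLECko group received the same injury and carried in addition Prox1-CreERT2, a tamoxifen-inducible Cre that acts in lymphatic endothelial cells and in any other cell that uses the Prox1 promoter. Per the labels, mice were given 80 mg/kg tamoxifen from day 13 to day 17, and irises were taken at 10 weeks after the outer edge had been trimmed away. The genotype label of the fl/fl libraries reads WT, and that of iLECko replicates 2 and 3 names another VEGFR number, so titles and descriptions were followed.

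Glycine is broken down in mitochondria by the glycine cleavage system, in which a decarboxylase (P protein, Gldc) loads the remainder of glycine onto a lipoyl carrier (H protein, Gcsh), an aminomethyltransferase (T protein, Amt) passes its carbon to folate, and a dehydrogenase (L protein, Dld) resets the carrier. Choline is oxidised to betaine, betaine hands a methyl group to homocysteine, and the dimethylglycine that is left is stripped by successive dehydrogenases to sarcosine and then to glycine, with the freed carbons again going to folate. The liver and kidney are the best known sites of the choline route, whereas the glycine cleavage system is also prominent in astrocytes and related glia of the nervous system.

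Dmgdh, which makes sarcosine from dimethylglycine, Bhmt, which makes dimethylglycine from betaine, and Bhmt2, a paralog of Bhmt that takes its methyl group from S-methylmethionine, lie side by side on chromosome 13. In RefSeq on build GRCm38.p6, Bhmt spans chr13:93616891-93637758 and Bhmt2 spans chr13:93656097-93674302, both on the minus strand, and Dmgdh spans chr13:93674436-93752823 on the plus strand. Bhmt2 and Dmgdh thus point away from each other, with 133 bases between their starts. Those bases, read on the plus strand from chr13:93674303-93674435, are shown because both flanking genes were nearly lost after injury, and their only match among the motifs searched, a GC box, is in capitals (69.9% GC, 6 CpG).

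Bhmt2-Dmgdh: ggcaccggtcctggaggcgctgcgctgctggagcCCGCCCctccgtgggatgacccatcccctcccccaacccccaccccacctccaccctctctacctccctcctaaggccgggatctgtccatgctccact

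The 250 bases before the start of Bhmt (chr13:93637759-93638008, minus strand) and of Gldc (chr19:30175442-30175691, minus strand) are shown for comparison, since Bhmt is the third gene of the cluster and Gldc was the enzyme that differed between the injured groups. Capitals mark matches on either strand to CCAAT, to the GC box GGGCGG or to the nuclear receptor motif AGGTCA.

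Bhmt: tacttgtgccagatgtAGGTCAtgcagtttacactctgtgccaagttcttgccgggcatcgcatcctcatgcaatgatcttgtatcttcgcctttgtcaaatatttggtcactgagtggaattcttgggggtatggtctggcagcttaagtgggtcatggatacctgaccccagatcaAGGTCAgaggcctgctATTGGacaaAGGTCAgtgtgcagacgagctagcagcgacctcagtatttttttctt

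Gldc: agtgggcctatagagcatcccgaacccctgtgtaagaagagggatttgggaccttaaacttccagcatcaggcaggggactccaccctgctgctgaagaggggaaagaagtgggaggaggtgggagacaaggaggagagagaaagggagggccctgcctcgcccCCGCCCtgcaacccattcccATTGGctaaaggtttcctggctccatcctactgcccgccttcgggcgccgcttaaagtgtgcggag

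The Bhmt window held 3 AGGTCA motifs, which began 234, 72 and 47 bases before the start, and 1 CCAAT box. The Gldc window held 1 CCAAT box and 1 GC box. Among 32851 RefSeq promoter windows of the same length, AGGTCA was found in 14%, CCAAT in 33.8% and GGGCGG in 32.7%. TATAAA (12.4% of windows) and TGATGNAA (3.45%) were searched as well and matched in none of the windows of the 10 genes or of Bhmt2. A match is a description of letters only.

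Every library held between 16617200 and 18306400 counts, and values below are given as estimated counts or as CPM, counts scaled to a common library size with TMM, with factors from 0.90 to 1.09. Markers of iris smooth muscle and of pigment cells were present in all libraries, with sums of 7271 to 9490 CPM and 27482 to 29415 CPM in Sham irises. Flt4, the gene of VEGFR3, had 282, 237 and 265 counts in Sham, 277, 353 and 400 in injured fl/fl and 478, 370 and 476 in injured iLECko irises. It was not lower in the labelled knockout (log2 fold change 0.33, SE 0.15, adjusted p = 0.20 in edgeR's quasi-likelihood test). The counts cover the whole gene in whole irises, and the deletion itself was not checked, so iLECko below names libraries as they are labelled. Transcripts of 4 Y-linked genes summed to 51.1 to 167.1 CPM in Sham and to 150.7 and 135.9 CPM in injured fl/fl replicates 1 and 2, but to 0.804 CPM in replicate 3 and 0.736 to 1.09 CPM in the iLECko libraries, so that Y-linked transcripts and genotype were largely confounded.

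After injury, 6 of the 10 enzymes met the thresholds for a differentially expressed gene (DEG, adjusted p under 0.05 and more than 1.5-fold), given here as a description, and all 6 were lower: Gldc, Amt, Shmt1, Bhmt, Dmgdh and Gnmt. Gcsh, Dld, Sardh and Chdh were not DEGs, and 0 of the 10 were called higher by edgeR, by DESeq2 or at an unadjusted p under 0.05. Of all 15010 genes tested, 39.7% were DEGs in this comparison, 17.5% in the lower direction. That was 3323 higher and 2630 lower with TMM, and 2783 higher and 3523 lower with library size scaling, under which Dld and Sardh were called lower as well. The median log2 fold change was -1.32 over the 10 enzymes and 0.01 over all genes. The injured fl/fl libraries lay wholly below the Sham libraries for 8 of the 10, against 32.4% of all genes, and since the list was chosen with these falls in view nothing is read from the shares. In RNA of whole irises, fewer cells of a type and less RNA per cell cannot be told apart.

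All 10 genes passed the filter on low counts, which asked for about 0.569 CPM in at least 3 libraries. Dmgdh, Bhmt and Gnmt, and the paralog Bhmt2, reached that level in all 3 libraries only in the Sham group, so they were tested through the group in which they were high.

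**Figure D1:**
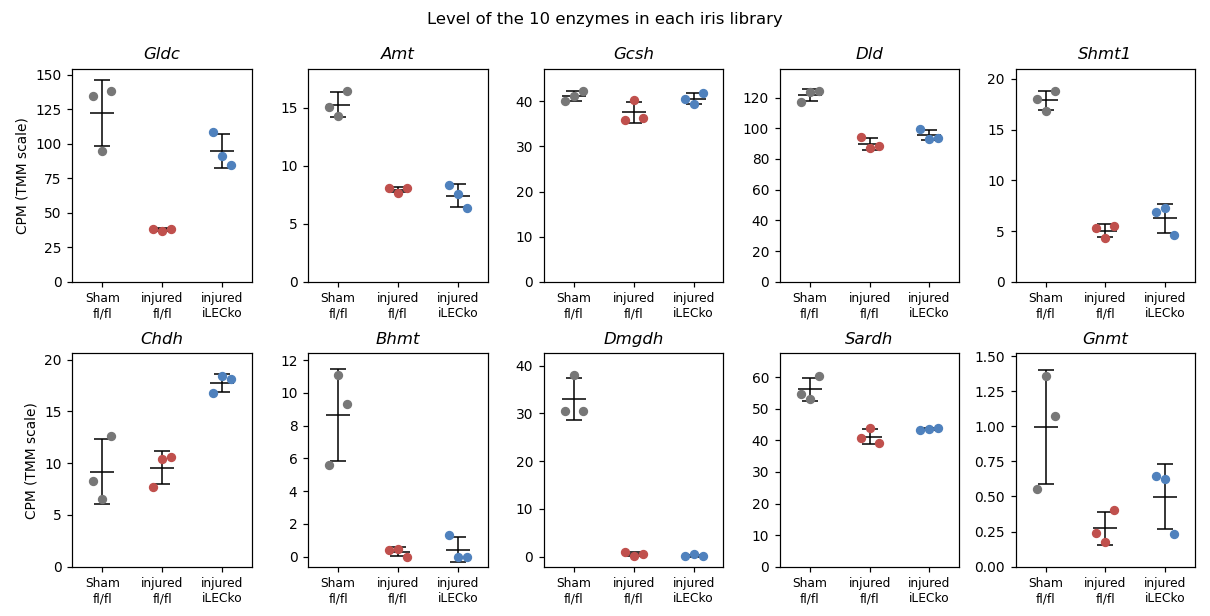
CPM on the TMM scale (linear axis) of each enzyme in each library, 1 panel per gene, with Sham fl/fl in grey, injured fl/fl in red and injured iLECko in blue. Points are libraries, and bars are the mean ± SD of 3. Dmgdh and Bhmt sat near 0 in both injured groups, whereas Gldc stood at 84.4 to 108.3 CPM in iLECko irises and at 36.9 to 38.5 CPM in injured fl/fl irises.

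Within the glycine cleavage system the 4 proteins moved by unequal amounts. Gldc, the P protein that removes the carboxyl group of glycine, had 134.7, 95.0 and 137.9 CPM in the Sham libraries and 38.5, 36.9 and 38.4 CPM in the injured fl/fl libraries. All injured fl/fl libraries lay below the lowest Sham library and within a narrow band. The group means were 122.5 ± 23.9 and 37.9 ± 0.909 CPM (SD, n = 3), a 3.23-fold lower level with a log2 fold change of -1.69 (SE 0.15). Gldc lies at chr19:30098441-30175441 and overlaps a ribosomal protein pseudogene, Rpl31-ps20.

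Amt, the T protein that hands the carbon of glycine to tetrahydrofolate, had 271, 253 and 291 counts in Sham and 133, 131 and 140 counts in injured fl/fl irises, with no overlap. Its level fell 1.92-fold (log2 fold change -0.94, SE 0.13). Dld, the L protein that the pyruvate, 2-oxoglutarate and branched-chain 2-oxoacid dehydrogenases share, had 2112, 2188 and 2202 counts in Sham and 1554, 1487 and 1543 in injured fl/fl irises. The Dld groups did not overlap either, but the difference of 1.35-fold (log2 -0.43, SE 0.06) was under the threshold for a DEG. Gcsh, the lipoylated H protein that carries the intermediate, had 723, 729 and 749 counts in Sham and 592, 688 and 633 in injured fl/fl irises (log2 fold change -0.13, SE 0.07). On the CPM scale its groups overlapped, and 91.2% of the Sham level remained, against 74.0% for Dld, 52.0% for Amt and 30.9% for Gldc.

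Shmt1, the cytosolic enzyme that interconverts serine and glycine, had 325, 298 and 333 counts in Sham and 88, 73 and 96 in injured fl/fl irises. Every injured library was far below the Sham range, and the fall was 3.54-fold (log2 fold change -1.82, SE 0.19). Its mitochondrial paralog Shmt2 went the other way, with 605, 594 and 622 counts in Sham and 711, 846 and 688 in injured fl/fl irises (log2 fold change 0.37, SE 0.10, adjusted p = 0.0115 in edgeR's quasi-likelihood test), a difference that passed the p threshold but not the 1.5-fold threshold.

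Along the route from choline to glycine, no difference was detectable for Chdh, while transcripts of Bhmt and Dmgdh nearly disappeared. Chdh, the choline dehydrogenase that starts the route, had estimated counts of 149.65, 115.73 and 224.83 in Sham and 127.38, 177.96 and 183.9 in injured fl/fl irises. The ranges overlapped (log2 fold change 0.06, SE 0.23), and the sign of this small difference changed with the scaling and with the library left out. Chdh lies at chr14:30008901-30040468 and overlaps Cacna1d, and its counts are fractional estimates, so its level is less certain than that of a gene counted in whole reads.

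Bhmt, betaine-homocysteine methyltransferase, had 101, 196 and 165 counts in Sham and 7, 8 and 0 in injured fl/fl irises. The lowest Sham library held 101 counts and the highest injured fl/fl library 8, and the group means differed 29.1-fold (log2 fold change -4.84, SE 1.15). Bhmt2 had 226, 321 and 252 counts in Sham, and 6, 1 and 5 in injured fl/fl irises, a 63.2-fold lower level (log2 fold change -5.94, SE 0.40).

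Dmgdh, dimethylglycine dehydrogenase, showed the deepest difference of the 10 genes. It had 551, 673 and 542 counts in the Sham libraries and 14, 2 and 10 in the injured fl/fl libraries. These were 33.0 ± 4.33 and 0.514 ± 0.370 CPM (SD, n = 3), so that 1.56% of the Sham level remained (log2 fold change -5.99, SE 0.48). The gene overlaps the long noncoding RNA AW495222, which has no count in these files, and the strand setting of the counting is not given in the sources used here.

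Sardh, the sarcosine dehydrogenase that acts directly after Dmgdh and is its relative in sequence and mechanism, behaved unlike it. It had 990, 943 and 1071 counts in Sham and 670, 750 and 682 in injured fl/fl irises. The groups did not overlap, yet 73.5% of the Sham level remained (log2 fold change -0.44, SE 0.07), which was not past 1.5-fold. Pdpr, a regulator of pyruvate dehydrogenase phosphatase that belongs to the same protein family, had a log2 fold change of -0.57 (SE 0.13, adjusted p = 0.00480 in edgeR's quasi-likelihood test), also under the fold threshold. Pipox, a peroxisomal enzyme that also oxidises sarcosine, fell from 109, 115 and 101 counts to 37, 28 and 33 (log2 fold change -1.65, SE 0.24, adjusted p = 2.87e-04 by the same test).

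Gnmt, the methyltransferase that turns glycine back into sarcosine, was close to the limit of detection throughout. It had 10, 24 and 19 counts in Sham and 4, 3 and 7 in injured fl/fl irises. The groups did not overlap, with a log2 fold change of -1.83 (SE 0.54). It no longer met the thresholds for a DEG without Sham replicate 2 or without injured fl/fl replicate 2.

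Levels of different genes were compared as approximate TPM, which also divides by transcript length. In Sham irises the order ran from Dld (136.8 TPM) through Gldc (93.6), Gcsh (81.7), Sardh (35.6), Dmgdh (31.5), Amt (21.0), Shmt1 (17.9), Bhmt (6.20) and Chdh (4.63) to Gnmt (2.72). Ranges over libraries overlapped between Gldc and Gcsh, between Sardh and Dmgdh and between Amt and Shmt1. The range of Chdh overlapped with those of Bhmt and Gnmt, which did not overlap with each other. In injured fl/fl irises Dmgdh had dropped to 0.389 TPM and stood in the last places with Gnmt (0.620) and Bhmt (0.172), whose ranges overlapped with it. Gcsh (60.8 TPM) was then above Gldc (23.5 TPM), with no overlap between them, and in injured iLECko irises Gcsh (72.8) and Gldc (64.9) overlapped again.

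**Figure D2:**
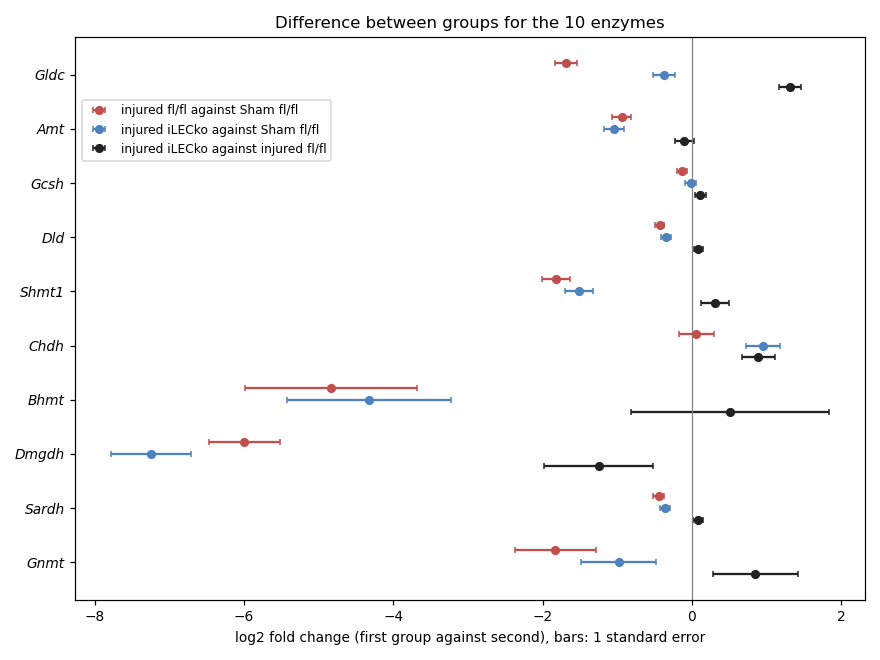
Fitted log2 fold change of each enzyme (x axis) in 3 comparisons, with bars of 1 standard error. Red is injured fl/fl against Sham, blue is injured iLECko against Sham and black is injured iLECko against injured fl/fl. Red and blue points of Dmgdh and Bhmt lie between -7.24 and -4.33, and Gldc is the gene with a red point at -1.69, a blue one at -0.37 and a black one at 1.32.

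The comparison of injured iLECko with injured fl/fl irises addresses the labelled loss of VEGFR3 from lymphatic endothelium in the injured iris, and it shares the injured fl/fl libraries with the comparison above. The list was drawn up with falls in those libraries in view, which favours higher values in the iLECko group. The p-values of this comparison are therefore not independent of the choice. Gldc was the DEG among the 10 enzymes, higher in the iLECko group, and 0 were lower by edgeR, by DESeq2 or at an unadjusted p under 0.05. Of all genes tested, 1.04% were DEGs here, 0.573% in the higher and 0.466% in the lower direction, and 24.5% had an unadjusted p under 0.05.

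Gldc had 108.3, 91.2 and 84.4 CPM in the iLECko libraries, against 38.5, 36.9 and 38.4 CPM in the injured fl/fl libraries. All iLECko libraries were above all injured fl/fl libraries, and the highest of them lay inside the Sham range. The difference on the log2 scale was 1.32 (SE 0.15, 95% interval 0.99 to 1.65, adjusted p = 0.0214 in edgeR's quasi-likelihood test). In injured fl/fl replicate 3, the library of that group that shares the near absence of Y-linked transcripts with the iLECko libraries, Gldc stood at 38.4 CPM. With a single such library, Y-linked transcripts and genotype cannot be told apart. With a Y-linked covariate the log2 fold change was 1.33 but the adjusted p was 0.169, and it was 0.0594 in a fit of the 6 libraries compared, 0.0566 without iLECko replicate 1 and 0.103 without iLECko replicate 2. Against Sham, 77.2% of the level was present in iLECko irises (log2 fold change -0.37, SE 0.14), and the groups overlapped.

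Chdh was the other enzyme whose iLECko libraries lay wholly above the injured fl/fl libraries, a pattern that 12.4% of all genes showed. It had estimated counts of 287.19, 324.48 and 315.16 in iLECko irises, with a log2 fold change of 0.89 (SE 0.23, adjusted p = 0.0736 in edgeR's quasi-likelihood test). It was not a DEG by that test, whereas DESeq2 gave an adjusted p of 0.00821. Against Sham, Chdh was the enzyme called higher in iLECko irises (log2 fold change 0.95, SE 0.23), where 19.7% of all genes were called higher. That call was lost with a Y-linked covariate.

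The near loss of the chromosome 13 cluster was present in both injured groups. Dmgdh had 2, 8 and 1 counts and Bhmt2 had 1, 2 and 2 counts in iLECko irises, and Bhmt had 22, 0 and 0. All Bhmt counts of that group thus came from replicate 1. Against injured fl/fl, the log2 fold change was -1.25 for Dmgdh (95% interval -2.89 to 0.39, adjusted p = 0.310) and 0.51 for Bhmt (-2.48 to 3.51, adjusted p = 0.839) in edgeR's quasi-likelihood test. Differences of several fold in either direction for Bhmt were not detectable at these counts. Against Sham, Dmgdh was 157.9-fold lower (log2 fold change -7.24, SE 0.53) and Bhmt2 was at least 86.6-fold lower when each iLECko library was set to a floor of 3 counts.

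The remaining 6 enzymes were not DEGs between the injured groups. The log2 fold change was -0.10 for Amt (95% interval -0.40 to 0.19), 0.11 for Gcsh (-0.04 to 0.27), 0.09 for Dld (-0.06 to 0.23) and 0.08 for Sardh (-0.08 to 0.24), all within 1.5-fold. It was 0.31 for Shmt1 (-0.12 to 0.73) and 0.85 for Gnmt (-0.44 to 2.13), intervals that leave room for larger differences. Adjusted p-values of these 6 genes ran from 0.321 to 0.655 in edgeR's quasi-likelihood test. Against Sham, Amt (log2 fold change -1.04), Shmt1 (-1.51), Dmgdh and Bhmt were called lower in iLECko irises, where 15% of all genes were. The Bhmt call was lost with DESeq2 and with a Y-linked covariate. This comparison shares the Sham libraries with the first.

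Beyond the cluster, 7 tested genes lay within 500000 bases of Dmgdh. After injury Jmy (-0.84), Arsb (-0.73) and Scamp1 (-0.67) were called lower and Tent2 (0.74) and Gm6109 (0.62) higher, all as log2 fold changes, and Homer1 (0.26) and Lhfpl2 (0.36) were not called. Bhmt, Bhmt2 and Dmgdh, with differences of -4.84, -5.94 and -5.99, stood apart from neighbours on both sides. The genes with the CPM pattern most like that of Dmgdh over the 9 libraries, by Pearson correlation of log2(CPM + 1) among 14229 genes, were Glrb (r = 0.998), which encodes the beta subunit of the glycine receptor, Bhmt2 (0.998), Tmem25 (0.997), Unc13c (0.997) and Bbs2 (0.997). Bhmt ranked 908 (0.946). Such a correlation does not measure the depth of a fall. Glrb had 61.0 to 67.9 CPM in Sham and 14.8 to 18.4 CPM in injured fl/fl irises. Tmem25 went from 11.9 to 12.8 CPM to 4.10 to 4.73 CPM, Unc13c from 41.0 to 45.0 CPM to 4.42 to 5.95 CPM. Bbs2 had 37.0 to 40.0 CPM in Sham and 19.8 to 21.6 CPM in injured fl/fl irises. All genes share the same 9 libraries, and the step between Sham and injured irises enters every such value.

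**Figure D3:**
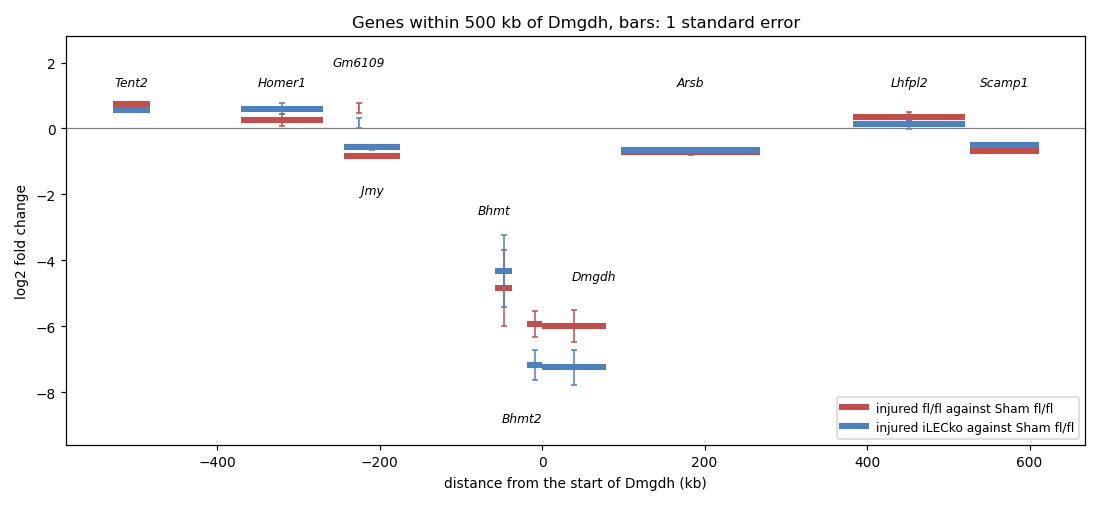
Log2 fold change against Sham (y axis) of genes around Dmgdh, placed by distance in kb from its start (x axis). Horizontal bars span each gene, red for injured fl/fl and blue for injured iLECko, and thin bars are 1 standard error. Bhmt, Bhmt2 and Dmgdh lie at -4.33 or lower in both groups, and the other genes lie between -0.84 and 0.74.

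Of 90 further enzymes and transporters of the adjoining pathways, in 6 lists, 78 were tested. After injury 12 were called higher, 25 lower and 41 neither, with a median log2 fold change of -0.32, beside 22.1% of all genes called higher and 17.5% lower. The lists, like the 10 enzymes, were drawn up with earlier results of these data known, so nothing is read from these shares. Values for these genes below are log2 fold changes in injured fl/fl against Sham. Their adjusted p-values, from edgeR's quasi-likelihood test, are given as a description, as are those of Shmt2, Pdpr and Pipox above.

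In the folate list, 5 of 20 tested genes were higher and 3 lower. The higher ones included the mitochondrial enzymes Aldh1l2 (1.53, SE 0.22, adjusted p = 2.73e-04), Mthfd1l (1.10, SE 0.20, 0.00126) and Mthfd2 (0.88, SE 0.19, 0.00273), which handle one-carbon units in the compartment of the cleavage system. The lower ones were the folate receptor Folr1 (-1.79, SE 0.22, 1.01e-04), the reduced folate carrier Slc19a1 (-1.23, SE 0.16, 1.60e-04) and Aldh1l1 (-0.88, SE 0.15), the cytosolic relative of Aldh1l2.

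In the list for supply and use of serine and glycine, 6 of 14 tested genes were lower and 1 was higher. Psat1, an aminotransferase of serine synthesis (-2.13, SE 0.17, adjusted p = 7.94e-06), Slc6a9, the glycine transporter GlyT1 (-1.97, SE 0.13, 2.62e-06), and Sdsl, a serine dehydratase-like enzyme (-1.41, SE 0.19, 1.79e-04), were furthest down. The gene called higher was Gatm, which uses glycine to make the precursor of creatine (1.01, SE 0.33, 0.0241). It had 116, 112 and 131 counts in Sham and 323, 112 and 252 in injured fl/fl irises, which overlapped, and the call was lost without Sham replicate 1, Sham replicate 2, injured fl/fl replicate 1 or injured fl/fl replicate 3.

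In the methionine list, 3 of 14 tested genes were lower and 3 higher. Besides Bhmt2, the lower ones were Cbs, which commits homocysteine to cysteine synthesis (-2.53, SE 0.35, adjusted p = 2.26e-04), and Ahcyl2, a relative of the S-adenosylhomocysteine hydrolase (-1.76, SE 0.10, 9.74e-07). The hydrolase itself, Ahcy (0.71, SE 0.13), and the methyltransferases Nnmt (1.82, SE 0.16, 1.42e-05) and Pemt (0.81, SE 0.24) were higher. The Pemt call was lost without Sham replicate 1 or without injured fl/fl replicate 2, where its log2 fold change was 0.67 and 0.68.

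In the choline list, 6 of 16 tested genes were lower and 3 higher. The betaine transporter Slc6a12 (-2.66, SE 0.85, adjusted p = 0.0226), Pipox and the choline transporter-like Slc44a5 (-1.60, SE 0.39) were furthest down. The Slc6a12 call was lost when Sham replicate 1, Sham replicate 3, injured fl/fl replicate 2 or injured fl/fl replicate 3 was left out (log2 fold change -2.62 to -2.27). Slc5a7, the high-affinity choline transporter of cholinergic nerve endings, had 2, 0 and 0 counts in Sham and 8, 27 and 160 in injured fl/fl irises, which is at least 22.3-fold higher against a floor of 3 counts per Sham library. Without injured fl/fl replicate 3, which held the 160 counts, that bound was 6.14-fold. Slc44a2 (0.78, SE 0.08) and Cept1 (0.69, SE 0.08), which completes the synthesis of phosphatidylcholine, were also higher. Chpt1, of the same list, was called lower (-1.01, SE 0.12). It averaged 97.6 CPM in Sham and 48.4 in injured fl/fl irises, against 31.6 and 51.2 CPM for Cept1. The injured libraries of Slc5a7 spread over a wide range, whereas the Sham libraries were at or near 0.

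Dmgdh and Sardh pass their electrons to the flavoprotein made of Etfa and Etfb and on to Etfdh. Of these 3 genes, Etfdh was called lower (-0.62, SE 0.08, adjusted p = 2.08e-04), and Etfa (-0.33, SE 0.06) and Etfb (-0.43, SE 0.14) were under the fold threshold. The Etfdh difference was also under it without injured fl/fl replicate 1 (-0.55). Among the 13 genes of lipoylation and of the other complexes that hold Dld, 6 were lower and 0 higher (0 also by DESeq2 or at an unadjusted p under 0.05), led by Pdhx (-1.66, SE 0.11, 2.31e-06), which anchors Dld in pyruvate dehydrogenase, Dhtkd1 (-0.98, SE 0.23) and Dbt (-0.91, SE 0.10). Lias, which makes the lipoyl group of Gcsh, had a log2 fold change of -0.07 (SE 0.10).

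Between iLECko and injured fl/fl irises, Slc6a9 was the related gene called, and it was higher. It had 4558, 4057 and 4459 counts in Sham, 1045, 1077 and 1046 in injured fl/fl and 2080, 1727 and 1415 in iLECko irises. The iLECko libraries were all above the injured fl/fl libraries and below the Sham libraries, the same order of groups as for the mean of Gldc (log2 fold change 0.69, SE 0.13, adjusted p = 0.0417 in edgeR's quasi-likelihood test). This call was lost when any single library other than iLECko replicate 3 was left out.

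**Figure D4:**
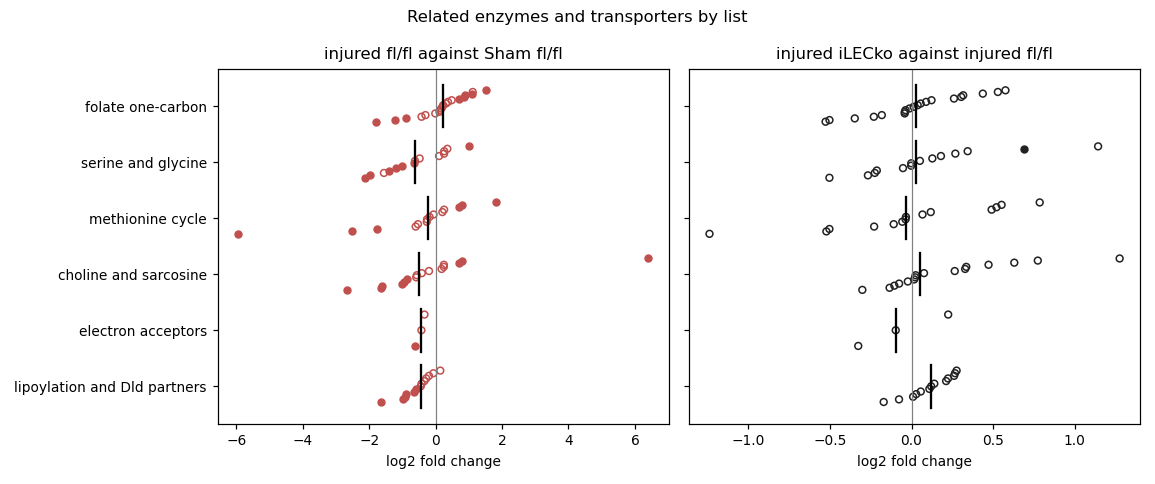
Log2 fold change (x axis) of each tested gene of the 6 related lists, injured fl/fl against Sham on the left and injured iLECko against injured fl/fl on the right. Circles are genes, filled where called, and vertical bars are list medians. On the left Bhmt2 lies at -5.94 and Slc5a7 at 6.40, a fitted value that depends on the prior count, and on the right the filled circle is Slc6a9 at 0.69.

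Marker genes of several cell types moved with the enzymes. Müller glia and astrocyte markers (5 genes), cells in which Gldc is well known, summed to 2022 to 2437 CPM in Sham, 908 to 1037 in injured fl/fl and 1275 to 1489 in iLECko irises, the order seen for Gldc. Glul, glutamine synthetase, made up 87.1%, 85.3% and 86.8% of the mean sum in these groups, so the order of the sum is largely that of 1 gene. After injury 4 of these 5 were called lower and 1, Gfap, higher (log2 fold change 2.08, SE 0.56). Gfap averaged 3.79 CPM in Sham, 16.1 in injured fl/fl and 8.82 in iLECko irises, unlike Gldc. In the same groups Rlbp1 averaged 196.6, 78.7 and 85.1 CPM and Aqp4 37.1, 11.7 and 35.5 CPM, the order of the Gldc means. Slc1a3 averaged 49.6, 32.9 and 56.6 CPM, highest in iLECko irises. Of the 5 markers, 4 had a log2 fold change above 0 between the injured groups. In edgeR's quasi-likelihood test 3 were higher and 0 lower at an unadjusted p under 0.05. Between the injured groups Glul was the marker called, higher in iLECko irises (log2 fold change 0.59, adjusted p = 0.0479 in edgeR's quasi-likelihood test). The sum of 3 ciliary body epithelium markers ran from 363 to 517 CPM in Sham, 75.7 to 91.8 in injured fl/fl and 178 to 275 in iLECko irises. Optc, which made up 99.5% of the mean sum in Sham, was called in both comparisons (log2 fold change -2.46 and then 1.54), and the other 2 markers in neither. Those 2 were near the limit of detection, with group means of 0.287 to 0.769 CPM for Atp6v1c2 and 1.34 to 1.52 CPM for Cacna1e. The paper took both as undetectable and the irises therefore as free of ciliary body tissue. For Gldc, the part of these cell types in the result was not tested.

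Pigment cell markers fell to 3344 to 5771 CPM in injured fl/fl and 5008 to 7061 in iLECko irises, with 6 of 6 called lower in each injured group against Sham. Smooth muscle markers fell as well (1482 to 3175 and 2244 to 3697 CPM, 4 and 3 of 6 called lower), and so did those of corneal and surface epithelium (771 to 781 CPM in Sham, 195 to 227 and 284 to 341 CPM after injury, 4 of 4 tested called lower). Pax6, which iris epithelium uses too, made up 97.2% of the last sum in Sham irises, and the rest came from keratins. Hepatocyte markers, listed because Bhmt, Dmgdh and Gnmt are abundant in liver, summed to 130 to 178 CPM in Sham, 14.2 to 117.6 in injured fl/fl and 21.1 to 33.5 in iLECko irises, and 0 of 4 tested were called by edgeR after injury in fl/fl irises, also at an unadjusted p under 0.05. Ttr, a transthyretin gene that is not particular to liver, had 150.9 of these CPM in the Sham mean and Alb, albumin, had 3.83, and 1 of 4 (Ttr, log2 fold change -2.78) was called lower in iLECko irises against Sham. Macrophage markers rose from 247 to 254 CPM to 1990 to 2077 CPM in injured fl/fl irises (6 of 6 called higher) and were 1358 to 1428 CPM in iLECko irises (2 of 6 lower than in injured fl/fl). The part of these changes in the levels of the enzymes was not tested.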

How the data were processed

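RNA of pooled irises was prepared with a TruSeq mRNA kit and read as single-end 50-base reads. Per the submitters' processing notes, the authors used HISAT2 2.0.4, Bowtie2 2.2.5 and DESeq2 1.4.5 with build mm10. The counting program, its annotation and its strand setting are not given in the sources used here. The deposited values are estimated counts per gene, not normalized by the authors, of which 9.83% to 10.3% per library were not whole. A combined table with group averages was not used.

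Estimated counts were rounded and fitted in R 4.3.3 with edgeR 4.0.16 (filterByExpr, TMM, quasi-likelihood test) over all 9 libraries with group as the single term, and p-values were adjusted by Benjamini-Hochberg over 15010 genes. A DEG had an adjusted p under 0.05 and more than 1.5-fold change. Totals of 16617200 to 18306400 counts set the counting error, and intervals are those of the fit over 3 libraries per group. Per the study's methods, the pools of a group held different mice. Replicates differed by more than counting noise (chi-square per degree of freedom 5.13 to 76.2). Approximate TPM used the longest GENCODE transcript (96.7% of genes), and positions and sequences came from RefSeq GRCm38.p6, the assembly of mm10, in which all 10 symbols and Bhmt2 matched.

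The members and lists were chosen with earlier results of these data known. All 10 members are named. From the related lists, genes called after injury with the largest changes were named, at most 3 in each direction per list. The paralogs Shmt2, Bhmt2, Pdpr and Pipox and any gene called between the injured groups were named too. Chpt1 was added beside Cept1. Alternatives were RLE, upper quartile or library size scaling, no filter, DESeq2 1.42.0, the 6 libraries compared, no fold threshold, a replicate block, a Y-linked covariate and each library left out. The fit was tried on simulated counts with the same spread for every gene. That is simpler than these data, so error rates under the conditions here were not tested.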

Additional observations from a re-analysis of the deposited data

How the results depend on the processing

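Leaving out single libraries gave 5 to 6 enzymes called lower after injury, 4 lower and 1 higher in iLECko against Sham, and 0 to 1 higher in iLECko against injured fl/fl. In the last comparison DESeq2 called 2 (Gldc and Chdh), and the 6 libraries alone and the Y-linked covariate called 0. The covariate also called 0 higher in iLECko against Sham, where the Bhmt difference became -0.18. The Bhmt call in that comparison was lost with DESeq2 too. Over these alternatives the Gldc difference between the injured groups kept its direction (log2 fold change 1.21 to 1.40), with adjusted p-values up to 0.169.

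Among the related genes, dropping the fold threshold gave 38 lower after injury, 31 lower in iLECko against Sham and 3 higher between the injured groups. For the last count, library size scaling gave 2, the 6 libraries alone 0, the covariate 0, the replicate block 0 and single libraries left out 0 to 2.

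Directions reversed for small or sparse differences. The log2 fold change of Chdh after injury was -0.11 with library size scaling and ran from -0.13 (Sham replicate 2 left out) to 0.36 (Sham replicate 3 left out), and it was also below 0 without Sham replicate 1 (-0.0080) and on leaving out replicate 2 (-0.0031) or replicate 3 (-0.016) of the injured fl/fl group. That of Bhmt between the injured groups ran from -5.40 (iLECko replicate 1 left out, the library with all of its iLECko counts) to 1.10 with single libraries left out, was -0.073 without injured fl/fl replicate 3, and was 4.61 with the covariate. That of Gcsh in iLECko against Sham was 0.049 with the covariate and ran from -0.039 to 0.0049 with single libraries left out (0.00013 for Sham replicate 3). Library size scaling moved the median of all genes after injury to -0.16, with 2783 genes called higher and 3523 lower in place of 3323 and 2630, and called Dld (-0.61) and Sardh (-0.62) lower.

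Deviations of same-numbered libraries from their group means had correlations of -0.35 to 0.18, and those of differently numbered libraries -0.25 to 0.34. With 3 libraries per group, these values cannot show whether the numbers mark a shared batch. The study's methods mention separate sequencing experiments, and their link to the replicate numbers is not given in the sources used here. The replicate block left Gldc at 1.31 (adjusted p = 0.0372 by edgeR) and the other enzyme calls as they were. Between the injured groups, all genes called numbered 86 higher and 70 lower, against 11 and 13 with the block, 0 and 0 with the 6 libraries alone (2805 at an unadjusted p under 0.05) and 349 and 281 with DESeq2. The cause of these differences was not tested. Counts of 24 or fewer per library limit Gnmt in all groups and Bhmt and Dmgdh after injury.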
